A study of Mus musculus with 12 samples.

Results

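The mitochondrial ribosomal protein genes were described here in mouse erythroid cells that received active SREBP2, β-estradiol to activate a GATA1 fusion, or both. They were taken as every gene of the count table whose symbol is Mrpl or Mrps followed by a number and at most 1 letter, without pseudogenes, which gave 78 of 17210 genes. All 78 passed the filter on low counts, as did 11177 genes of the table. By RefSeq and common knowledge of the ribosome, 51 of them encode proteins of the large subunit and 26 proteins of the small subunit. Mrps30 and Mrps18a were counted with the large subunit, where their proteins sit despite the names, and Mrps36 was kept apart because its protein is now assigned to the alpha-ketoglutarate dehydrogenase complex.

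Mitochondria translate the few proteins of their own DNA, all of them parts of oxidative phosphorylation, on a ribosome that is separate from that of the cytosol. Its RNAs come from mitochondrial DNA, while its proteins are encoded in the nucleus, made in the cytosol and imported. Many of these proteins have a counterpart in bacterial ribosomes and others were gained later. Maturing red cells need mitochondria for haem synthesis and lose them at the end of differentiation.

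G1E-ER4 is a mouse erythroid progenitor line without a Gata1 gene of its own, and it carries GATA1 joined to the ligand-binding domain of the estrogen receptor. β-estradiol (EST) activates this fusion, which all 4 groups carried. Cells were transduced for 24 h with a retrovirus that was either empty (Vector) or expressed the active fragment of SREBP2, the transcription factor that drives cholesterol synthesis, before 6 h without or with EST (the latter being Vector+EST and SREBP2+EST). For EST, the samples' treatment protocol states 500 nM but the series' design text states 200 nM. There were 3 libraries per group, 12 in all, each called by its group and its column number in the count table. All are of this 1 cell line. The labels give the strain as C57BL/6J for every group. They do not say that libraries came from separate cultures, so p-values measure the spread between these libraries, which may be technical.

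Library totals ran from 18700959 to 19152281 estimated counts. Srebf2, the gene of SREBP2, was at 361 ± 8.32 CPM (counts scaled to 1000000 per library, SD, n = 3) in Vector, 442 ± 13.0 in Vector+EST, 816 ± 20.1 in SREBP2 and 808 ± 6.66 in SREBP2+EST, higher in every SREBP2 library than in any library without it. The labels call the cell type embryonic stem cells, but the 5 of 8 pluripotency markers in the table summed to at most 0.647 CPM in any library. The 14 erythroid markers, all past the filter, summed to 10400 to 10800 CPM in Vector and to 6740 to 8050 CPM in the other libraries. The lower sum went with Hba-a1 (3090 CPM on average in Vector and 1590 to 1740 in the other groups) and Gata1 (1770 against 453 to 557). The line lacks a Gata1 gene of its own, so these Gata1 reads may come from the fusion, whose RNA would then differ between groups. Their origin was not tested. The markers did not move together: mean Alas2 was 52.1 CPM in Vector and 138 to 176 CPM in the other groups and Tfrc 527 against 806 to 838 CPM, while Slc4a1, an erythroid membrane gene, was 67.6 against 2.86 to 4.04 CPM. Markers of fibroblasts and matrix, 9 of 10 in the table, summed to 19.7 to 20.8 CPM in Vector, 4.45 to 6.07 in SREBP2, 5.07 to 37.0 in Vector+EST and 19 to 36 in SREBP2+EST. Nearly all of the Vector sum was Col1a2, at a mean of 19.5 CPM. The other 8 summed to at most 1.46 CPM in Vector, SREBP2 and Vector+EST libraries 1 and 3, but to 29.7 CPM in Vector+EST library 5 and to 14.6, 28.0 and 13.2 CPM in SREBP2+EST libraries 1, 2 and 5. Without Vector+EST library 5, EST in Vector cells lowered 46 and raised 12 of the 78 members described below, against 45 and 13 with all libraries. With all libraries 35.5% of all genes tested were lower and 35.2% higher, and the shares without library 5 are not given here. Neural markers summed to 11.5 to 13.0 CPM in Vector and 2.06 to 5.94 elsewhere, and mast and myeloid markers to 13.8 to 14.9 CPM in Vector and 2.87 to 6.01 elsewhere. Megakaryocyte markers summed to 55.1 to 63.5 CPM in Vector, 44.2 to 53.2 in Vector+EST and 88.6 to 113 in both SREBP2 groups. They went both ways: Pf4 was at a mean of 9.46 CPM in Vector and 47.7 in SREBP2 and Gp1ba at 17.2 and 43.5, but Itga2b was at 28.1 and 7.23 and Gp9 at 2.87 and 0.772. Whether these other markers have a part in the results below was not tested.

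The promoters of 5 members are shown first because these genes stand for the patterns described below: Mrpl12 and Mrps18b were among those that fell most, Mrps31 and Mrpl53 rose most, and Mrpl41 went opposite ways. Each run is the 5′ to 3′ sense strand from 250 bases before to 50 bases after an annotated start of the gene, from RefSeq on GRCm38.p6. Capitals mark matches to the motifs of NRF1 (GCGCANGC), ETS factors such as GABPA (CCGGAAG) and YY1 (ATGGCGGC), searched on both strands, with no overlaps among the matches shown.
Mrpl12 (chr11:120484387-120484686, plus strand, 1 NRF1 match): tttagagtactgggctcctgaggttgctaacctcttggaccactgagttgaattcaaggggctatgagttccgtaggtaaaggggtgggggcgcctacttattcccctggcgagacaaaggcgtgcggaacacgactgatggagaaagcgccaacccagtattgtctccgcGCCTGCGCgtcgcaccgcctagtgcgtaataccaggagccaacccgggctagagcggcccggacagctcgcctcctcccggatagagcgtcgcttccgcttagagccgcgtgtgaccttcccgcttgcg
Mrps18b (chr17:35916391-35916690, minus strand, NRF1 and ETS matches): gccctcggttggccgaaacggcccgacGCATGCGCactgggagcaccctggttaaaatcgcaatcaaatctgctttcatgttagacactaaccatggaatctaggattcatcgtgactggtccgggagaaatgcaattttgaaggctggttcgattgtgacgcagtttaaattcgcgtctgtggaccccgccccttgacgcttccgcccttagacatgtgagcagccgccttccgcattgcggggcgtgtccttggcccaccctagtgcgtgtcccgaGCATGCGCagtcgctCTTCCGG
Mrpl53 (chr6:83108858-83109157, plus strand, ETS and YY1 matches): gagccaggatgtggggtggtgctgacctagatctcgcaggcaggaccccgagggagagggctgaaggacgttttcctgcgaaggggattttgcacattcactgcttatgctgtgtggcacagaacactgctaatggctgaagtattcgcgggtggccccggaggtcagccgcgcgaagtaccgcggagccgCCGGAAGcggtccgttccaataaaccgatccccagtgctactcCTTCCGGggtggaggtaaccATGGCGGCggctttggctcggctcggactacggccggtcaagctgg
Mrps31 (chr8:22411090-22411389, plus strand, no match): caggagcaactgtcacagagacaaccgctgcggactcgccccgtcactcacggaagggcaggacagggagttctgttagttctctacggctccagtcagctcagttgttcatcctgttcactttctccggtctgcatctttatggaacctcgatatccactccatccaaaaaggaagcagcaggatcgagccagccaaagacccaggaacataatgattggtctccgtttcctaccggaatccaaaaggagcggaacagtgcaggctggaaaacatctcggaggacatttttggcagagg
Mrpl41 (chr2:24975049-24975348, minus strand, no match): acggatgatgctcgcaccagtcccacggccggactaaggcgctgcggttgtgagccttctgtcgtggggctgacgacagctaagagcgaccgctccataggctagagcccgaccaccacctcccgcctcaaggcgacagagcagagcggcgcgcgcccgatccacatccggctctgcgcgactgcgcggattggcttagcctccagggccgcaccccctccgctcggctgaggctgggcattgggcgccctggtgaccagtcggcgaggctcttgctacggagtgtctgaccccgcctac

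Such windows were found for 69 of the 78 members. NRF1 and GABPA are known activators of nuclear genes for mitochondria. The NRF1 motif was in the windows of 22 members, 31.9% of those matched, against 23.2% of 9059 tested genes with a window and 11.2% of 27025 genes with one. The ETS motif was in 26 members, or 37.7%, against 21.7% of tested genes and 9.93% of all. YY1 matches occurred in 12 members, or 17.4%, against 6.13% and 2.60%. The E-box bound by MYC (CACGTG) was in 5 members, or 7.25%, against 11.8% and 8.09%, and the GATA motif (AGATAA) in 11 members, or 15.9%, against 8.40% and 12.7%. The sterol element bound by SREBP (TCACNCCAC) matched 0 of 69 windows, against 1.32% of tested genes and 1.44% of all. Among the 38 matched members that were lower after both treatments, 11 had the NRF1, 15 the ETS and 7 the YY1 motif, and among the 7 that were higher after both, 2, 3 and 2 had them. These are letter matches in a short window and not binding sites.

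The members' summed level was highest in Vector, at 5840 to 5919 CPM with a mean of 5882 ± 39.8 (SD, n = 3). It was 5060 ± 39.1 CPM in Vector+EST, 4791 ± 241 in SREBP2 and 4782 ± 14.3 in SREBP2+EST, so that no library of these 3 groups reached the lowest Vector library. The mean sum was thus 14.0% lower in Vector+EST, 18.5% lower in SREBP2 and 18.7% lower in SREBP2+EST than in Vector. The SREBP2 libraries spread most, with 4538 CPM in library 1, 4815 in library 3 and 5018 in library 5, and library 1 was the lowest of its group for 62 of 78 members. The large-subunit members summed to 3989 ± 25.5 CPM in Vector, 3458 ± 27.6 in Vector+EST, 3290 ± 163 in SREBP2 and 3286 ± 6.67 in SREBP2+EST. For the small subunit the sums were 1814 ± 16.7, 1536 ± 17.0, 1432 ± 76.2 and 1426 ± 14.3 CPM in the same order. CPM are shares of a library's counts, so an absolute fall and a rise of other RNA cannot be told apart. In cultures of many cells, the same holds for less RNA per cell and fewer cells that make it.

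**Figure D1:**
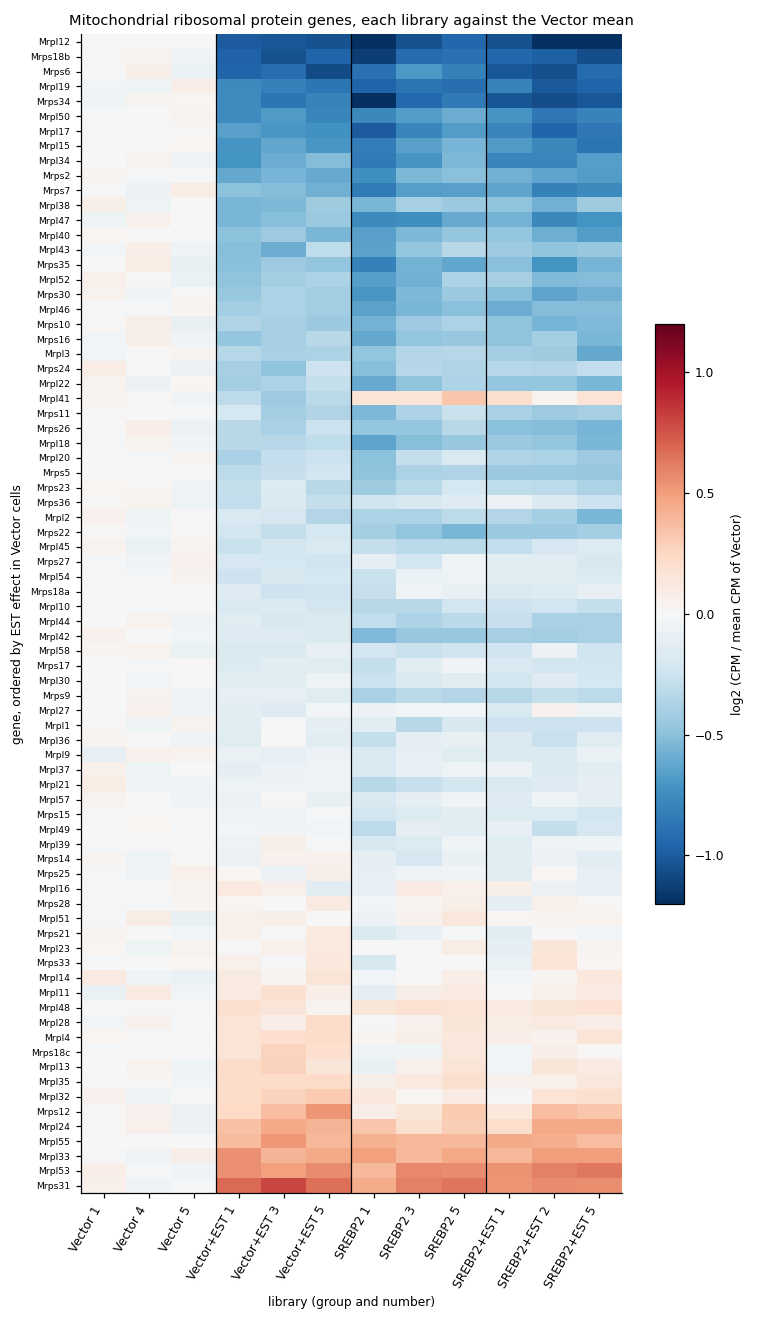
Level of each of the 78 genes (rows, ordered by the EST effect in Vector cells) in each of the 12 libraries (columns), as log2 of CPM over the gene's mean CPM in Vector, blue for lower and red for higher. Most rows turn blue together in all 9 libraries outside Vector, a block at the bottom turns red, and Mrpl41 is blue in Vector+EST and red in the SREBP2 libraries.

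Single members in Vector ranged from 20.3 CPM for Mrps6 to 206 CPM for Mrpl12, with a median of 70.3 CPM. Per kilobase of transcript, Mrpl52 was highest in Vector at 311 CPM per kb, followed by Mrpl30 at 232, and Mrps25 was lowest at 10.7. Medians over members were 56.4 CPM in Vector+EST, 56.6 in SREBP2 and 55.0 in SREBP2+EST. In each of these groups Mrpl30, and no longer Mrpl12, had the highest CPM.

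Most members were lower in Vector+EST than in Vector. Of the 78, 45 were lower, 13 were higher and 20 did not pass the threshold, an adjusted p under 0.05 in edgeR's quasi-likelihood test, whereas over all genes tested 35.5% were lower and 35.2% higher. The median log2 fold change was -0.18 over the members and 0.01 over all genes. The 3 libraries of the groups did not overlap for 61 members, of which 48 were lower and 13 higher, against 37.9% and 37.7% of all genes tested. Most changes were small: 10 members were lower and 1 was higher by more than 1.5-fold, and of all genes 15.1% and 16.3% were. Past 1.2-fold, 30 members were lower and 7 higher, against 28.0% and 27.8% of all genes. The small subunit had 17 of 26 members lower and 3 higher (median log2 fold change -0.25), and the large subunit had 27 of 51 lower and 10 higher (median -0.15).

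Mrpl12 encodes the protein that forms the flexible stalk of the large subunit, where translation factors dock. It stood at 208, 204 and 205 CPM in the Vector libraries, far above the 103, 102 and 100 CPM with EST. The level was 2.02-fold lower with EST, and the log2 fold change was -1.02 ± 0.07 (SE; edgeR adjusted p = 3.66e-09). The gene (Entrez 56282) lies on chromosome 11 at 120484637 to 120488754.

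Mrps18b, 1 of 3 genes related to bacterial S18, encodes a small-subunit protein. Its levels were 110, 112 and 106 CPM in Vector and 55.8, 52.9 and 56.1 CPM in Vector+EST, groups far from overlapping, with a log2 fold change of -0.99 ± 0.06 (edgeR adjusted p = 2.15e-10). Mrps18a, a large-subunit paralogue, went from 62.0, 61.4 and 61.6 CPM to 55.3, 52.1 and 52.3 CPM (-0.21 ± 0.06). Mrps18c went the other way, from 41.5, 42.0 and 41.7 CPM to 46.4, 50.2 and 48.0 CPM (0.21 ± 0.06). The rise of Mrps18c did not pass the threshold with the correction for GC content and length, and no test between the paralogues was made.

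Mrps6, the least abundant member, was at 20.4, 21.3 and 19.2 CPM in Vector and at 10.4, 10.8 and 9.65 CPM in Vector+EST (log2 fold change -0.99 ± 0.08). Its gene overlaps Slc5a3, whose log2 fold change was -0.45, and whether counting used the strand is not given in the sources used here, so reads of overlapping genes may be shared. Mrpl19, a large-subunit protein with a bacterial counterpart, fell from 60.6, 59.7 and 65.3 CPM to 36.4, 35.2 and 33.9 CPM (-0.82 ± 0.06). Mrps34, a small-subunit protein without such a counterpart, fell from 73.0, 77.5 and 77.3 CPM to 45.0, 41.6 and 43.6 CPM (-0.81 ± 0.07). Mrpl50 fell from 79.4, 80.4 and 82.3 CPM to 47.7, 50.3 and 47.0 CPM (-0.74 ± 0.05). In each of these genes all Vector libraries lay above all Vector+EST libraries.

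Among the 13 members that rose, Mrps31, a small-subunit protein without a bacterial counterpart, rose most. It was at 32.5, 30.3 and 30.7 CPM in Vector and at 50.1, 54.5 and 49.3 CPM in Vector+EST, a log2 fold change of 0.72 ± 0.06 (edgeR adjusted p = 1.92e-08). Mrpl53, a protein at the base of the stalk, went from 23.9, 22.2 and 21.9 CPM to 33.1, 31.7 and 33.5 CPM (0.53 ± 0.06). Mrpl33 rose from 25.7, 25.5 and 27.6 CPM to 38.2, 34.7 and 35.9 CPM (0.47 ± 0.06). Neither gene's groups overlapped. Mrpl55 and Mrpl24, the latter a protein near the exit of the peptide tunnel, rose by 0.44 ± 0.05 and 0.41 ± 0.06 on the log2 scale. Mrps12, a protein of the decoding centre, rose by 0.39 ± 0.08, from 54.7, 56.1 and 51.4 CPM to 64.0, 69.9 and 78.3 CPM. The others were Mrpl32, Mrpl35, Mrpl13, Mrps18c, Mrpl4, Mrpl28 and Mrpl48. The call for Mrpl48 was lost in 11 of 21 alternatives, that for Mrpl28 in 2, and those for Mrpl13, Mrpl35 and Mrps18c in 1 each.

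SREBP2 without EST also lowered most members. There were 53 lower, 8 higher and 17 not past the threshold, while over all genes tested 33.8% were lower and 37.7% higher, and the median log2 fold change was -0.23 over members and 0.03 over all genes. The libraries did not overlap for 63 members, 53 lower and 10 higher, against 35.5% and 39.2% of all genes. By edgeR 13 members were lower by more than 1.5-fold, near the 13.8% of all genes, and 0 were higher by as much, against 19.5%. Past 1.2-fold, 38 were lower and 5 higher, against 26.6% and 30.7% of all genes. Of the small subunit, 19 of 26 members were lower and 1 higher (median -0.37), and of the large subunit 33 of 51 were lower and 7 higher (median -0.19).

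In the SREBP2 libraries Mrpl12 stood at 81.4, 100 and 107 CPM, below all Vector libraries (log2 fold change -1.10 ± 0.07; edgeR adjusted p = 1.42e-09). Mrps18b was at 49.7, 57.6 and 58.7 CPM (-0.98 ± 0.06) and Mrps34 at 33.1, 39.8 and 42.2 CPM (-0.98 ± 0.07). Both sat lowest in library 1, which is also lowest for the family. Mrpl19 was at 31.9, 33.7 and 33.1 CPM (-0.91 ± 0.06), Mrpl17, a protein of the tunnel exit, at 50.9, 59.4 and 64.0 CPM against 101, 101 and 103 CPM in Vector (-0.81 ± 0.06), and Mrps6 at 10.9, 12.6 and 11.6 CPM (-0.80 ± 0.08). Higher levels were found for Mrps31 at 42.5, 47.5 and 48.7 CPM (0.57 ± 0.06), Mrpl53 at 29.5, 33.6 and 33.5 CPM (0.51 ± 0.06) and Mrpl33 at 36.8, 34.2 and 36.2 CPM (0.45 ± 0.06). Mrpl55 rose by 0.40 ± 0.05, Mrpl24 by 0.27 ± 0.06 and Mrpl41 by 0.22 ± 0.06 on the log2 scale, and Mrpl48 and Mrpl35 rose by less, with calls lost in 4 and 7 of 21 alternatives.

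**Figure D2:**
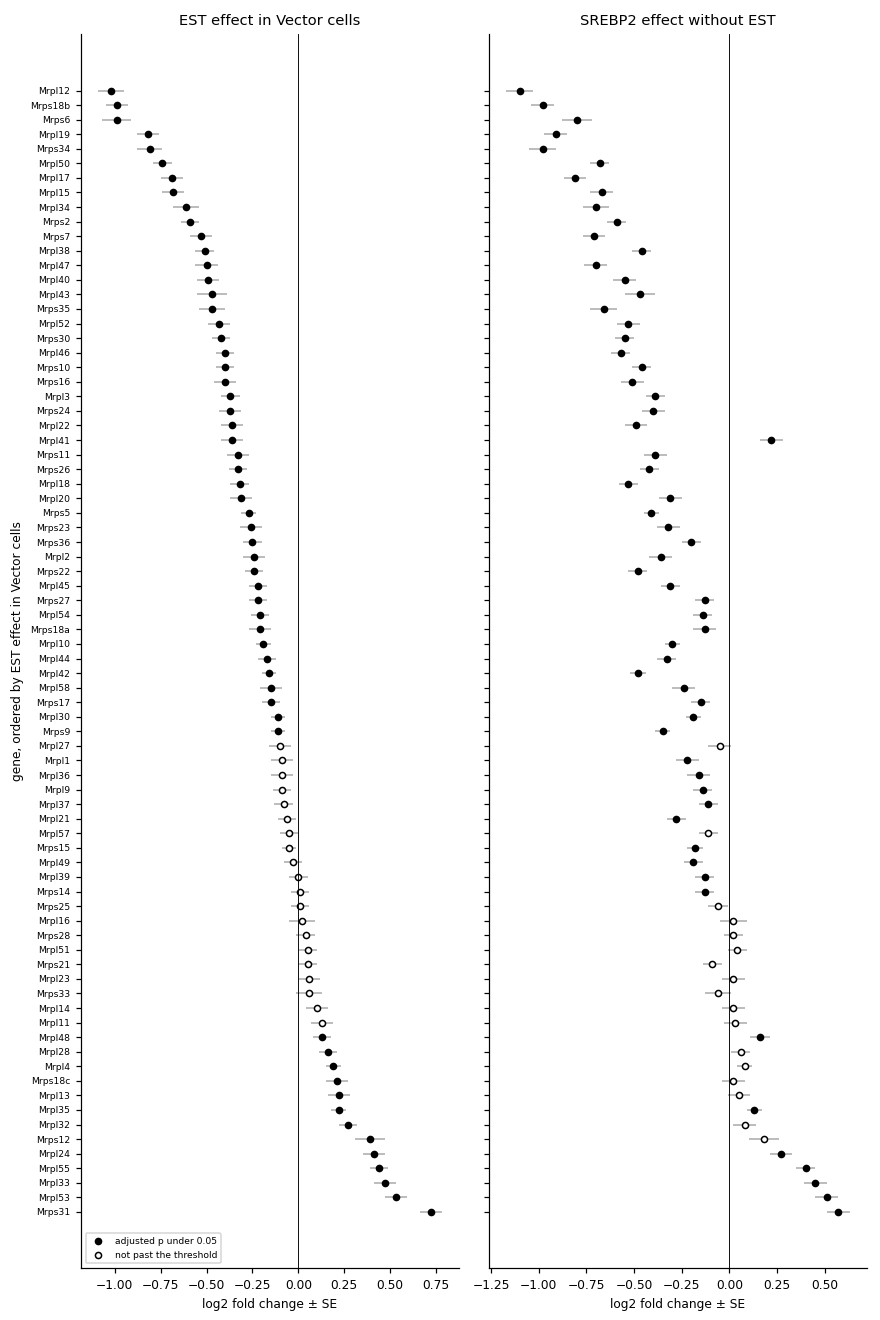
Log2 fold change of each of the 78 genes with its SE, for EST in Vector cells (left) and SREBP2 without EST (right), in the same gene order; filled points passed an edgeR adjusted p under 0.05. Both panels run from Mrpl12 near the far left to Mrps31 at the far right, and the 2 comparisons share the Vector libraries.

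The 2 comparisons share their Vector libraries, so their likeness is given only as counts. By calls, 44 members were lower in both, 7 higher in both, 9 lower with SREBP2 and not past the threshold with EST, 6 higher with EST and not past it with SREBP2, 11 passed in neither, and 1, Mrpl41, was lower with EST and higher with SREBP2. Over all genes tested these patterns held 29.9%, 30.6%, 3.79%, 4.45%, 20.2% and 1.66% in the same order. The 44 comprised 26 of the large and 17 of the small subunit and Mrps36, on 16 of the 17 chromosomes that hold members. The 7 were Mrps31, Mrpl53, Mrpl33, Mrpl55, Mrpl24, Mrpl48 and Mrpl35. Leaving out the 20 members that overlap another gene of the table left 58, of which EST lowered 35 and raised 10, and SREBP2 lowered 40 and raised 5, against 35.5% lower and 35.2% higher of all genes with EST and 33.8% and 37.7% with SREBP2. With EST, 6 of the 20 passed together with a partner that passed in the same direction: Mrpl18 with Tcp1 (-0.13), Mrpl43 with Twnk, Mrpl44 with Wdfy1 (-0.37), Mrpl48 with Rab6a (0.29), Mrps6 with Slc5a3 and Mrps23 with Cuedc1 (-0.72). With SREBP2 there were 8, among them Mrpl48 with Rab6a (0.51). Partners of Mrpl19 (Gcfc2, 0.14 with EST), Mrpl53 (Ccdc142, -0.09) and Mrpl24 (Rrnad1, -0.00) did not pass.

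**Figure D3:**
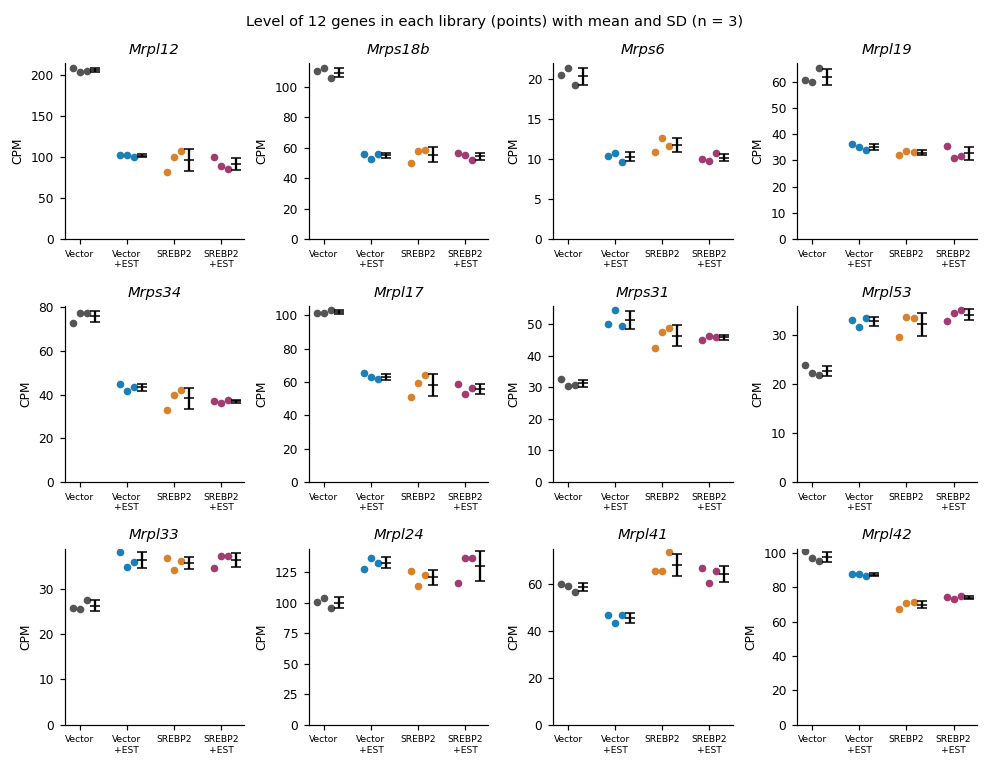
CPM of 12 genes in each library (points, 3 per group), with the mean and SD beside them, on axes that start at 0. Mrpl12, Mrps18b, Mrps6, Mrpl19, Mrps34 and Mrpl17 drop in all 3 groups outside Vector, Mrps31, Mrpl53, Mrpl33 and Mrpl24 rise, and Mrpl41 and Mrpl42 separate Vector+EST from the SREBP2 groups.

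By place in the ribosome the groups hold 4 to 6 genes each, too few to set apart from the shares of all genes tested (35.5% lower and 35.2% higher with EST, 33.8% and 37.7% with SREBP2), so their counts are a description. Of 5 stalk proteins, 3 were lower and 1 higher in each comparison: Mrpl12 as above, Mrpl10, which anchors Mrpl12, at -0.19 ± 0.04 with EST and -0.30 ± 0.04 with SREBP2, and Mrpl53 as the riser. Mrpl11, at the base of the stalk, did not pass, with 0.13 ± 0.06 and 0.03 ± 0.06, although with EST it passed in 2 of 21 alternatives. Of 6 proteins of the central protuberance, the top of the large subunit, 5 were lower and 1 higher in each comparison. Among them Mrpl58, a peptidyl-tRNA hydrolase that became part of the ribosome, was at -0.15 ± 0.06 and -0.24 ± 0.06. Its EST call was lost in 4 of 21 alternatives, without Vector library 1, Vector+EST library 1 or Vector+EST library 3 and with the block on header numbers. Of 6 proteins around the peptide exit, 4 were lower and 1 higher in each, among them Mrpl45, which holds the ribosome to the inner membrane, at -0.22 ± 0.05 and -0.31 ± 0.05. Of 4 proteins near the peptidyl transferase centre, 2 were lower and 0 higher in each by edgeR. Of 5 proteins of the decoding region, 4 were lower with EST and 4 with SREBP2, and Mrps12 was higher with EST. With SREBP2 Mrps12 did not pass (0.18 ± 0.08; edgeR adjusted p = 0.0551), but it passed in 8 of 21 alternatives.

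Of 48 members with a bacterial counterpart, 25 were lower and 10 higher with EST, and 31 lower and 4 higher with SREBP2 (median log2 fold changes -0.11 and -0.20). Of 29 without, 19 were lower and 3 higher with EST, and 21 lower and 4 higher with SREBP2 (medians -0.22 and -0.31). Of all genes tested, 35.5% were lower and 35.2% higher with EST, and 33.8% and 37.7% with SREBP2. Mrps30, a large-subunit protein of the second kind, fell from 155, 146 and 152 CPM in Vector to 110, 116 and 113 CPM with EST (-0.42 ± 0.05) and to 93.3, 104 and 111 CPM with SREBP2 (-0.55 ± 0.05). Mrpl57 did not pass in either comparison (-0.05 ± 0.05 and -0.11 ± 0.05), but with SREBP2 its adjusted p was 0.0534 by edgeR and it passed in 14 of 21 alternatives. Mrps36 was lower in both (-0.25 ± 0.05 and -0.20 ± 0.05). No test between these classes was made.

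Mrpl41, a large-subunit protein also known to bind the survival factor BCL2, was the member that moved in opposite directions. Vector libraries had 59.8, 59.0 and 56.6 CPM of it, Vector+EST libraries 46.9, 43.2 and 46.8 CPM, SREBP2 libraries 65.4, 65.5 and 73.5 CPM and SREBP2+EST libraries 66.9, 60.3 and 65.5 CPM. The Vector+EST libraries lay below all others and those of both SREBP2 groups above all Vector libraries. EST lowered it (-0.36 ± 0.06; edgeR adjusted p = 4.5e-05) and SREBP2 raised it (0.22 ± 0.06; adjusted p = 0.00241). Set directly against each other, SREBP2 was above Vector+EST by 0.58 ± 0.06 on the log2 scale (adjusted p = 1.37e-06), and SREBP2+EST above Vector+EST by 0.49 ± 0.06. The gene (Entrez 107733) lies on the minus strand of chromosome 2 at 24972470 to 24975098.

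SREBP2 and Vector+EST, which do not share libraries, were then compared directly. Of the 78 members, 14 were lower in SREBP2, 1 was higher and 63 did not pass the threshold, and over all genes tested 8.96% were lower and 14.4% higher. Medians were -0.09 over members and -0.00 over all genes, and 28 members had groups that did not overlap, 26 of them lower and 2 higher, against 16.2% and 19.3% of all genes. Mrpl42, a large-subunit protein without a bacterial counterpart, differed most among those lower. Its Vector libraries had 101, 97.3 and 95.2 CPM, those of Vector+EST 88.0, 88.0 and 86.4 CPM, and those of SREBP2 67.7, 71.1 and 71.3 CPM, so each group lay apart from the others (-0.32 ± 0.04 for SREBP2 against Vector+EST; edgeR adjusted p = 1.38e-05). Mrps22 and Mrps9 of the small subunit were lower in SREBP2 by -0.24 ± 0.05 and -0.24 ± 0.04, and Mrpl21, Mrpl18 and Mrpl47 by -0.22 ± 0.05, -0.20 ± 0.05 and -0.20 ± 0.06. The call for Mrpl47 (adjusted p = 0.0365 by edgeR) was lost in 6 of 21 alternatives, without SREBP2 library 1 or 3, without any one of the Vector+EST libraries and with the block. The members that fell most from Vector did not pass here: Mrpl12 had -0.08 ± 0.08 and Mrps18b 0.01 ± 0.06.

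This count depended on the processing. The block on header numbers left 5 lower, and 1289 higher and 513 lower over all genes tested, and a fit of the compared libraries alone left 9. With library totals in place of TMM 31 members were lower, and with a correction for GC content and length 42, while over all genes tested the calls went from 1615 higher and 1002 lower to 1365 and 1868, and to 1297 and 2898. Without SREBP2 library 5 it was 25, and without SREBP2 library 3, Vector+EST library 3 or Vector+EST library 5 it was 8, 7 and 8. Without SREBP2 library 1 it was 9, with 3 higher. Calls over all genes tested are not given for the fit of the compared libraries alone or for those without 1 library. A shift of all genes cannot be told from these counts.

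With EST present, SREBP2 lowered 15 members and raised 1, Mrpl41, while 62 did not pass. Over all genes tested 7.94% were lower and 14.0% higher, and the medians were -0.08 over members and -0.00 over all. The libraries did not overlap for 34 members, 31 lower and 3 higher, against 17.6% and 20.5% of all genes. Mrpl42 was lowest relative to Vector+EST (88.0, 88.0 and 86.4 CPM), at 74.2, 73.2 and 74.8 CPM in SREBP2+EST (-0.24 ± 0.04; edgeR adjusted p = 0.000285). Mrps34 followed with -0.23 ± 0.07, Mrps7 with -0.21 ± 0.06, Mrps26 with -0.20 ± 0.05, Mrps9 with -0.20 ± 0.04 and Mrps22 with -0.19 ± 0.05. Mrpl2, next to the peptidyl transferase centre, had -0.19 ± 0.06. Of 21 alternatives, 5 lost the call for Mrps34, 5 for Mrps7, 4 for Mrpl2, 2 for Mrps26 and 1 for Mrps22. These were the block on header numbers for each but Mrps26, and the omission of SREBP2+EST library 5 for each but Mrps22. The omission of SREBP2+EST library 2 ended the calls for Mrps34 and Mrps7, that of Vector+EST library 1 those for Mrps34, Mrps7 and Mrpl2, that of library 3 those for Mrps7 and Mrpl2, and that of library 5 those for Mrps34 and Mrps26. The count of 15 lower fell to 3 with the block on header numbers, under which all genes tested had 1005 higher and 203 lower, and rose to 26 without library 1 of both SREBP2 groups. Library totals gave 30 lower and the GC and length correction 49, and over all genes tested 1560 higher and 888 lower became 1292 and 1768, and 1223 and 2650. Without SREBP2 library 1 the count was 23, without SREBP2+EST library 2 or 5 it was 9 and 6, and without Vector+EST library 1, 3 or 5 it was 7, 8 and 8. For the fits that left out libraries, calls over all genes tested are not given, so a shift of all genes cannot be told from these counts.

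**Figure D4:**
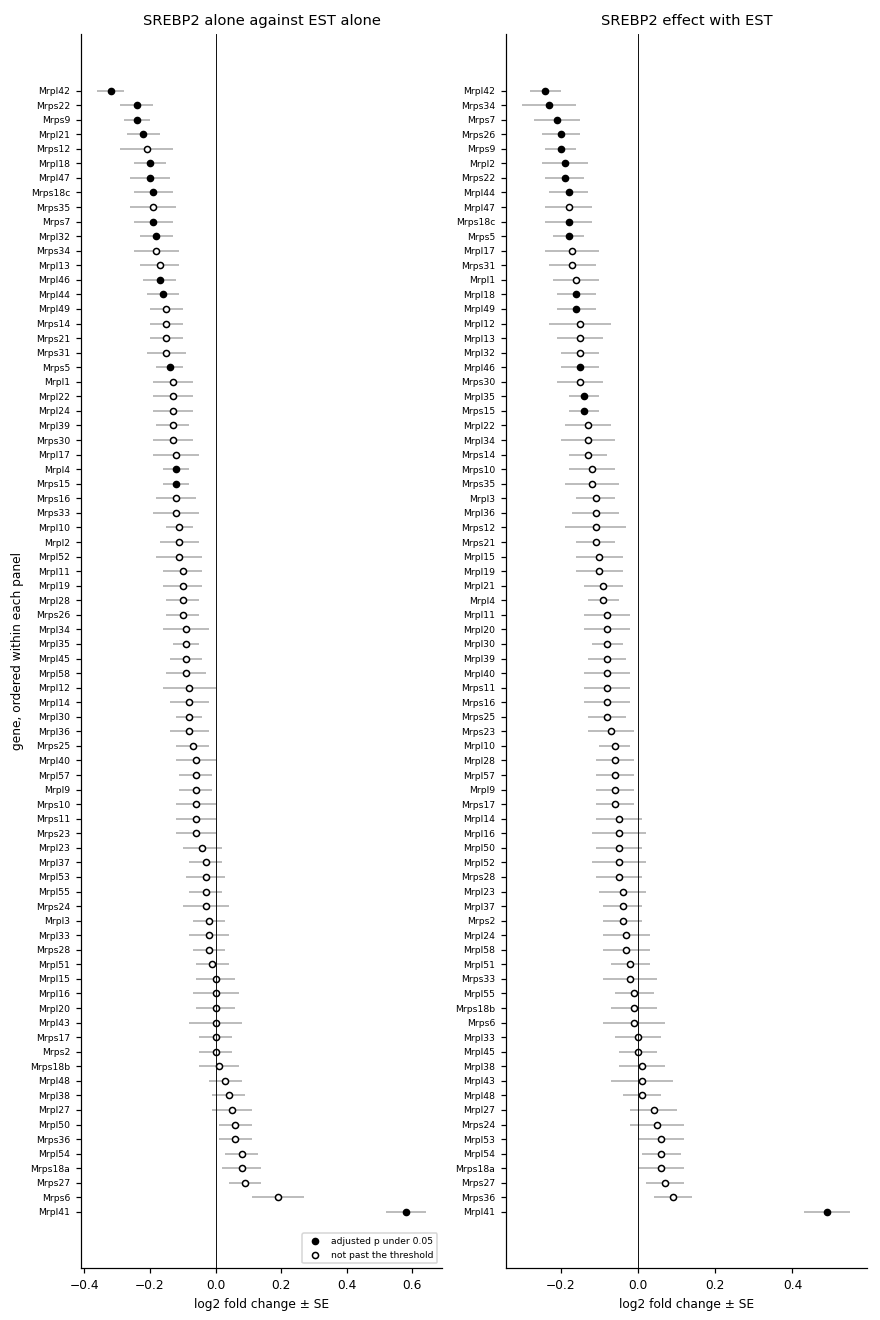
Log2 fold change of each of the 78 genes with its SE, for SREBP2 against Vector+EST (left) and SREBP2+EST against Vector+EST (right), each panel in its own order; filled points passed an edgeR adjusted p under 0.05. Mrpl41 is the gene at the far right of both panels, at 0.58 and 0.49, and Mrpl42 is at the far left, at -0.32 and -0.24.

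EST changed no member past the threshold in cells that carried SREBP2. By edgeR 0 of 78 passed, as did 0.0% of all genes in either direction, and DESeq2 also called 0 members. At an unadjusted p under 0.05 there were 2 members, Mrps6 (-0.20 ± 0.08) and Mrpl21 (0.13 ± 0.05), and 284 higher and 222 lower genes of all tested. The libraries did not overlap for 4 members, 2 in each direction, against 4.22% higher and 3.22% lower of all genes. The median over members was -0.01. Mrpl12 was at 99.9, 89.0 and 86.0 CPM in SREBP2+EST and Mrps18b at 56.6, 55.1 and 52.1 CPM, within the range of SREBP2. With library 1 of SREBP2 and library 1 of SREBP2+EST both left out, 8 members were lower and 1 was higher, with 13.9% of all genes called.

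The difference between the EST effects was tested as an interaction, the EST effect in SREBP2 cells minus that in Vector cells. The interaction was more positive than 0 for 42 members and more negative for 10, against 29.8% and 29.2% of all genes, with medians of 0.20 and -0.00. Because EST changed 0 genes past the threshold in SREBP2 cells, it largely repeats the EST effect in Vector cells with the sign reversed. The 2 sets of counts are not independent. The most positive were Mrps18b at 0.97 ± 0.08, Mrpl12 at 0.95 ± 0.11, Mrpl19 at 0.81 ± 0.09, Mrps6 at 0.79 ± 0.11, Mrps34 at 0.75 ± 0.10 and Mrpl17 at 0.64 ± 0.09. The most negative was Mrps31 at -0.73 ± 0.08, and the others were Mrpl33, Mrpl53, Mrpl55, Mrpl24, Mrps12, Mrpl35, Mrpl32, Mrps18c and Mrpl4. Past 1.5-fold the interaction was positive for 7 members and negative for 1, against 13.3% and 14.9% of all genes. Leaving out Vector library 4 or 5 left 6 of the 10 negative ones and ended the calls for Mrpl32, Mrpl4, Mrps12 and Mrps18c.

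Most genes for building and running the mitochondrial ribosome were also lower. Of 26 assembly factors past the filter, EST lowered 15 and raised 2 (median -0.17) and SREBP2 lowered 18 and raised 4 (median -0.26). For these and the next lists, the shares of all genes tested are again 35.5% lower and 35.2% higher with EST and 33.8% and 37.7% with SREBP2. Mrm3, a methyltransferase of the large ribosomal RNA, went from 29.7, 30.3 and 29.3 CPM in Vector to 11, 11.4 and 13.8 CPM with EST (-1.30 ± 0.09) and 11, 14.4 and 13.6 CPM with SREBP2 (-1.2 ± 0.09). Rcc1l, an assembly factor of the large subunit, had -1.06 ± 0.10 and -0.97 ± 0.10. C1qbp, a matrix RNA-binding protein, had -0.35 ± 0.04 and -0.47 ± 0.04. Noa1 and Ddx28 rose with EST by 0.40 ± 0.05 and 0.36 ± 0.07.

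Of 16 translation factors, 12 were lower and 0 higher in each comparison by edgeR and by DESeq2, with medians of -0.27 for EST and -0.35 for SREBP2, and 0 were higher at an unadjusted p under 0.05. Mtres1, a ribosome rescue factor, had -1.09 ± 0.10 and -1.01 ± 0.10. Lrpprc, which stabilises mitochondrial mRNAs, had -0.70 ± 0.06 and -0.67 ± 0.06. Tufm, the elongation factor that brings tRNAs to the ribosome, had -0.38 ± 0.04 and -0.54 ± 0.04. Of 5 subunits with other names, EST lowered 3 and raised 2 and SREBP2 lowered 3 and raised 1. Dap3, a GTP-binding small-subunit protein, had 0.13 ± 0.04 with EST and 0.01 ± 0.04 with SREBP2, the latter not past the threshold.

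Of 10 genes for copying and transcribing mitochondrial DNA, EST lowered 8 and SREBP2 lowered 7 and raised 1 (medians -0.44 and -0.58). Twnk, the helicase of mitochondrial DNA, had -1.11 ± 0.08 and -1.14 ± 0.08 and overlaps Mrpl43, which had -0.47 ± 0.08 in both. Tefm, an elongation factor of transcription, had -0.84 ± 0.13 and -0.68 ± 0.12. Polrmt, the RNA polymerase, had -0.54 ± 0.06 and -0.66 ± 0.06, and Tfam, its initiation factor, -0.45 ± 0.07 and -0.61 ± 0.07. mRNAs encoded by mitochondrial DNA were not analysed here.

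Among 8 regulators, EST lowered 4 and raised 2, and SREBP2 lowered 5 and raised 1, a list too short to set firmly against the shares of all genes. Myc, which drives growth and ribosome production, went from 415, 391 and 395 CPM in Vector to 128, 122 and 128 CPM with EST (-1.67 ± 0.14) and 107, 166 and 164 CPM with SREBP2 (-1.46 ± 0.14). Pprc1, a coactivator of NRF1, went from 220, 219 and 219 CPM to 83.6, 78.6 and 84.6 CPM (-1.42 ± 0.09) and to 69.6, 91.9 and 86.3 CPM (-1.41 ± 0.09). Ppargc1b, a related coactivator, had -0.27 ± 0.08 and -0.57 ± 0.08. Gabpa had -0.17 ± 0.04 and -0.23 ± 0.04. Nrf1 rose with EST by 0.14 ± 0.05 and did not pass with SREBP2 (-0.02 ± 0.05), and Yy1 rose by 0.29 ± 0.03 and 0.19 ± 0.03. Whether any of these regulators acts on the members was not tested.

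**Figure D5:**
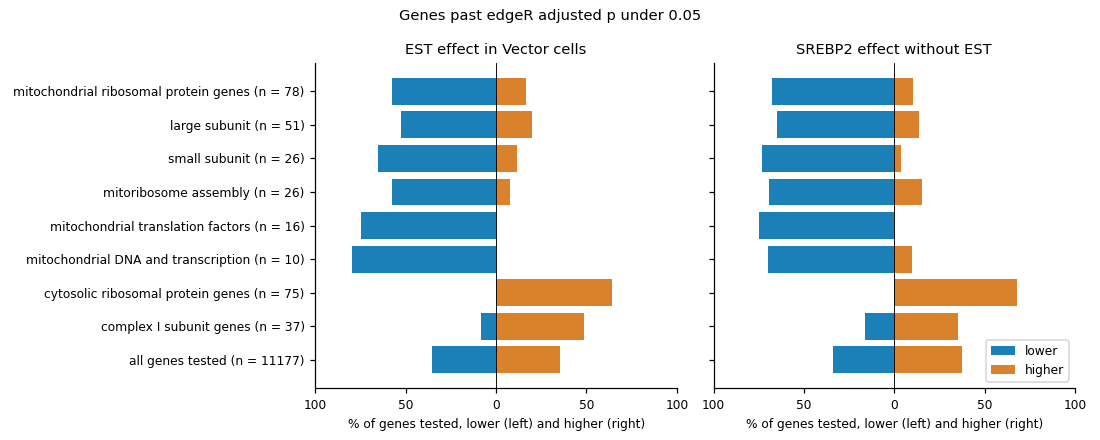
Share of genes past an edgeR adjusted p under 0.05, lower to the left and higher to the right, for EST in Vector cells and SREBP2 without EST, with the number tested beside each set. The members, their subunits and the assembly, translation factor and mitochondrial DNA lists had more lower than higher calls, the cytosolic ribosomal protein genes had only higher calls (25 higher and 1 lower for SREBP2 with library totals), the complex I genes had more higher than lower calls (10 and 11 for SREBP2 with library totals), and all genes tested had similar shares of both.

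The cytosolic ribosome was taken as the nearest relative. Of its 75 genes EST raised 48 and SREBP2 raised 51, and 0 were lower by edgeR, by DESeq2 or at an unadjusted edgeR p under 0.05. The changes were small, with medians of 0.11 and 0.12, and summed levels were 79940 ± 1020 CPM in Vector, 87210 ± 1370 in Vector+EST, 86960 ± 3270 in SREBP2 and 88010 ± 1850 in SREBP2+EST. The SREBP2 count fell to 25 higher and 1 lower with library totals and to 24 higher and 7 lower with the GC and length correction. For EST it was 44 and 0, and 42 and 2. Of 37 genes of respiratory complex I, for which the mitochondrial ribosome makes some partner subunits, EST raised 18 and lowered 3 and SREBP2 raised 13 and lowered 6, the latter 10 and 11 with library totals. Of the complex I genes 48.6% were thus higher and 8.11% lower with EST, against 35.2% and 35.5% of all genes, and 35.1% higher and 16.2% lower with SREBP2, against 37.7% and 33.8%. No test between these families was made.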

How the data were processed

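Poly(A) RNA of 12 libraries was sequenced in single 50-base reads. The authors deposited estimated counts per gene, not normalized, of which 66.5% are whole numbers. The submitters' processing notes name GRCm38.p6, HISAT2 2.0.4, Bowtie2 2.2.5, RSEM 1.2.12 and DESeq2 1.4.5, without roles. A second table holds the authors' own comparisons per transcript (log2 fold changes and p-values) and was not used. The column headers carry numbers that differ from the replicate numbers of the titles, so only groups were taken from them.

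Counts were rounded to whole numbers, and 6033 genes were left out by filterByExpr. All 12 libraries were fitted together with edgeR 4.0.16 (R 4.3.3), with TMM scaling, 1 mean per group, the quasi-likelihood F-test and Benjamini-Hochberg adjustment over 11177 genes. The SE was obtained as the log2 fold change over the root of F. CPM are counts scaled to 1000000 per library, TMM included. Depth gives a floor of 3 counts, or 0.16 CPM, for counting error only; the lowest count of a member was 182. On simulated counts for EST in Vector cells, 200 of 11033 genes were changed. There 64.2% of 1.2-fold, 97% of 1.5-fold and 100% of 2-fold changes were recovered, with 7 false of 181 calls.

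Members were named by rule: Mrpl10, Mrpl11, Mrpl12, Mrpl45, Mrpl57, Mrpl58, Mrps12, Mrps18a, Mrps18b, Mrps18c, Mrps30 and Mrps36 whatever their values, members against the prevailing direction, and the 6 largest changes each way per comparison past the threshold with a mean log2 CPM of at least 3. For other lists the 3 largest changes and some genes fixed by name were eligible, and not all are given. Mrpl43, the overlapping partner genes and the genes named for their level were chosen after their values were seen. Members, lists and motifs were chosen with earlier results of these data known. Alternatives were DESeq2 1.42.0, relative log expression scaling, library totals, other filters and folds, fits of the compared groups alone, leave-one-out fits, SREBP2 library 1 and SREBP2+EST library 1 left out, GENCODE M21 GC content and length for 97.6% of genes, and a block on header numbers.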

Additional observations from a re-analysis of the deposited data

Results flagged for a closer look

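The EST effect differed between SREBP2 and Vector cells by the interaction test (edgeR, adjusted p under 0.05), which brought these results here. It was more positive for 42 members and more negative for 10, against 29.8% and 29.2% of all genes tested. On the log2 scale the difference of effects was 0.97 for Mrps18b, 0.95 for Mrpl12, 0.81 for Mrpl19, 0.79 for Mrps6, 0.75 for Mrps34, 0.64 for Mrpl17, 0.41 for Mrps30, 0.31 for Mrpl45, 0.28 for Mrps36, 0.23 for Mrpl10, 0.21 for Mrpl58 and 0.20 for Mrps18a. It was -0.73 for Mrps31, -0.45 for Mrpl33, -0.45 for Mrpl53, -0.42 for Mrpl55, -0.30 for Mrpl24, -0.29 for Mrps12 and -0.20 for Mrps18c. Not every alternative kept these calls: of 20 alternatives, the interaction lost its call in 14 for Mrps18c, 8 each for Mrps12 and Mrps18a, 7 for Mrpl58, and 1, the block on header numbers, for Mrpl10. For each of these genes the EST effect in SREBP2 cells itself did not pass the threshold, so the differences largely repeat the EST effect in Vector cells with the sign reversed. Their causes were not tested.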

How the results depend on the processing

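The prevailing fall held its direction under every alternative run for EST in Vector cells and for SREBP2 without EST. Calls over all genes tested are not given for the leave-one-out fits that follow. Leaving out each library gave 42 to 47 lower and 10 to 14 higher for EST (median -0.23 to -0.18), 47 to 55 lower and 6 to 10 higher for SREBP2 without EST (median -0.29 to -0.22), 6 to 23 lower and 1 higher for SREBP2 with EST (median -0.09 to -0.08), 0 for EST in SREBP2 cells (median -0.03 to 0.03), 7 to 25 lower and 1 to 3 higher for SREBP2 against Vector+EST (median -0.13 to -0.05), and 6 to 12 negative and 37 to 43 positive interactions (median 0.16 to 0.23). A fold over 1.2 left 30 lower and 7 higher for EST, against 28.0% and 27.8% of all genes tested. For SREBP2 it left 38 lower and 5 higher, against 26.6% and 30.7%. A fold over 1.5 left 10 lower and 1 higher for EST, against 15.1% and 16.3%. It left 13 lower and 0 higher for SREBP2, against 13.8% and 19.5%, and 1 negative and 7 positive interactions, against 14.9% and 13.3%. Past 1.5-fold the lower counts were thus near the shares of all genes. Library totals gave a median of -0.29 for SREBP2, 30 lower for SREBP2 with EST and 31 for SREBP2 against Vector+EST. The GC and length correction gave medians of -0.34, -0.16 and -0.16 for these comparisons and 49 and 42 lower in the latter ones. Only the libraries compared gave 9 lower for SREBP2 against Vector+EST. Without library 1 of both SREBP2 groups, 26 were lower for SREBP2 with EST, 8 lower and 1 higher for EST in SREBP2 cells, and 3 higher for SREBP2 against Vector+EST.

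A block on header numbers, in which the numbers 2 and 4 occur in 1 library each, left 3 lower for SREBP2 with EST and 5 for SREBP2 against Vector+EST, 40 lower for EST and 46 for SREBP2. Same-numbered libraries deviated with correlations of -0.174 to 0.0674, so the numbers were not taken as pairs. Values under alternatives were tallied for the members ranked or fixed by name in each comparison, without others named here such as Mrpl48, Mrpl35 and Mrpl2. Of these 2121 values, 1986 kept their direction and side of the threshold, 75 lost and 59 gained it, and 1 reversed: Mrps18c for SREBP2 without EST was -0.13 (edgeR adjusted p = 0.0313) with the GC and length correction. The causes were not tested. Small changes can be missed in this design. In the simulation 64.2% of 1.2-fold changes were recovered for EST in Vector cells, at this depth and with 3 libraries per group. The simulation changed 200 genes, whereas 7893 of 11177 passed in the data. Its adjustment was therefore stricter, and the rate does not carry over to these calls.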
